A study of Homo sapiens with 3 samples.

Results

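The replication-dependent histone genes of human chromosome 6 were examined for binding of the PRCC-TFE3 fusion protein, through every peak that HA-PRCC-TFE3 chromatin immunoprecipitation sequencing (ChIP-seq) placed within 3 blocks of hg19 sequence. Block 1 spans chr6:26015000-26290000 (275 kb), block 2 spans chr6:27095000-27120000 (25 kb), and block 3 spans chr6:27770000-27865000 (95 kb). A peak was counted in a block if at least 1 bp of it lay there, without regard to its strength. The blocks held 75 of the 109205 narrowPeak peaks of ChIP replicate 1 and 61 of the 81300 of replicate 2. Once overlapping peaks of both replicates had been merged, 77 of 117702 union regions lay in the blocks. The sequence between them, chr6:26290000-27095000 (stretch 1) and chr6:27120000-27770000 (stretch 2), served as the comparison and held 151 union regions.

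HK-2 cells are an established human line derived from the proximal tubule of the kidney. Those used here carry a Tet-On cassette from which HA-tagged PRCC-TFE3 is made when doxycycline is given, and all samples, input DNA included, came from cells kept in 0.2 µg/mL doxycycline for 24 h. Chromatin was cut with MNase and precipitated with an antibody to HA. The data comprised 2 HA-PRCC-TFE3 ChIP replicates and 1 input DNA library, with about 12235754, 7418533 and 21704346 tags, the last as estimated from the replicate 1 list. Input DNA was the only background, since cells without doxycycline were not analysed here. Values given for 1 replicate come from 1 library, and union and shared regions rest on both.

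Replication-dependent histone genes encode the linker histone H1 and the core histones H2A, H2B, H3 and H4, around which DNA is wrapped. They are transcribed mainly in S phase, lack introns, and give messenger RNAs that end in a stem-loop rather than a poly(A) tail. TFE3, the transcription factor part of the fusion, belongs to the MiT/TFE family, whose members bind E-boxes such as CACGTG and CATGTG and are known for their control of lysosomal and metabolic genes.

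By name and order in RefSeq (GRCh38.p14), the histone genes of the short arm of chromosome 6 form 3 runs of at least 5 genes. These were taken as the contents of the 3 blocks in the same order, and any smaller group was left out. Run 1, from *H1-1* to *H4C8*, holds 32 protein-coding histone genes, with 5 of H1, 4 of H2A, 8 of H2B, 7 of H3 and 8 of H4. Run 2 consists of 5 genes, *H2BC11*, *H2AC11*, *H2BC12*, *H4C9* and *H2AC12*. Run 3, from *H2BC13* to *H2BC17*, holds 16 genes, among them the linker histone gene *H1-5*. Among genes with a RefSeq promoter sequence, 8 pairs of an H2A and an H2B gene point away from each other across overlapping promoters. Examples are *H2BC11* and *H2AC11*, or *H2BC4* and *H2AC6*. Genes without such a sequence could not be paired. Run 1 also contains *HFE*, which acts in iron balance, and is otherwise free of other protein-coding genes. The neighbours between the runs are of another kind. Between runs 1 and 2 lie 47 transfer RNA genes and 9 protein-coding genes, mainly of the butyrophilin family such as *BTN3A2* and *BTN2A1*, and between runs 2 and 3 lie 51 transfer RNA genes and 5 protein-coding genes, among them *ZNF184*. The comparison sequence is therefore rich in genes itself. Because no annotation of hg19 was used, no peak was assigned to a single gene, and distances from peaks to gene starts were not analysed here.

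Promoters of 3 genes of block 2, the block with the most peaks per Mb, are shown together with an H4 promoter of block 1, to show how the promoters of the histone classes differ in sequence. They are RefSeq windows of 300 bases, from 250 before to 50 after the gene start, read 5′ to 3′ on the strand of the gene. Capitals mark CCAAT and TATAAA on either strand, and neither CACGTG nor CATGTG occurs in them. The windows lie in GRCh38.p14 at chr6:27132793-27133092 (plus strand, *H2AC11*), chr6:27146809-27147108 (minus strand, *H2BC12*), chr6:27139032-27139331 (plus strand, *H4C9*) and chr6:26027234-26027533 (minus strand, *H4C2*), and these positions cannot be set beside the hg19 positions of the peaks.
H2AC11: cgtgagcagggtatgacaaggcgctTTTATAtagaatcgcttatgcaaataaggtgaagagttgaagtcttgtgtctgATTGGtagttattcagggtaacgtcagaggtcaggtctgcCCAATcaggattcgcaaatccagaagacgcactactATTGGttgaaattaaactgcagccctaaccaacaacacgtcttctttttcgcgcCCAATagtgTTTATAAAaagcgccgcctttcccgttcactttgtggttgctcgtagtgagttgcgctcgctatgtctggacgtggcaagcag
H2BC12: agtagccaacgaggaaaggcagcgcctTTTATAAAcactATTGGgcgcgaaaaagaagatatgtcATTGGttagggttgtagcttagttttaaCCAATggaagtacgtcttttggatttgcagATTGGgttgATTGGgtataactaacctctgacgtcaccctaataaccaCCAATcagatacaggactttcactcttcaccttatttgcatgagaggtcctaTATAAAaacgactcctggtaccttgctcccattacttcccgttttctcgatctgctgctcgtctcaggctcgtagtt
H4C9: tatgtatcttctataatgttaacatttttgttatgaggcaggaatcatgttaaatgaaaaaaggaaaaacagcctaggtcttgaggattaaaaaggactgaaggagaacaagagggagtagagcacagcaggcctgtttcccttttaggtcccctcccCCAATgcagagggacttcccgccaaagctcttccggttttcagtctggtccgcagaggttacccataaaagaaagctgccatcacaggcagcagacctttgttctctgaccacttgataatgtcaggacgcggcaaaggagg
H4C2: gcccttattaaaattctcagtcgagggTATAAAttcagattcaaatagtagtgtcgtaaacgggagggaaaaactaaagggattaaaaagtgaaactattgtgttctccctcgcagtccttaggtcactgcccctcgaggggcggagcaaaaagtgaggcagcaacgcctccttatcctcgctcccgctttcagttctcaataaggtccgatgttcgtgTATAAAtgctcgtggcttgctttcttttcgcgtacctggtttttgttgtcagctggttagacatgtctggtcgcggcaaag

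The window of *H2AC11* overlaps that of the divergent *H2BC11*. CCAAT is the element bound by NF-Y, a factor known to act at many histone promoters. The H2A and H2B promoters shown carry CCAAT several times, with 4 matches in *H2AC11* and 6 in *H2BC12*, whereas *H4C9* has 1 match and *H4C2* has none. The same letters were searched in all histone promoters of the 3 runs. Of the 53 histone genes, 48 were matched to at least 1 window, 52 windows in all, and *H2AC12*, *H3C11*, *H3C12*, *H4C1* and *H4C3* were not matched. None of the 52 windows held CACGTG, compared with 7.26% of the 35116 promoter windows of all genes, and none held CATGTG, compared with 11.1%. In contrast, CCAAT was present in 45 of 52 histone windows (86.5%, against 34.6% of all windows), and TATAAA, the letters of the TATA box, in 34 of 52 (65.4%, against 11.5% of all windows). Matches were counted on either strand anywhere in a window, so a TATAAA match need not be the TATA box of that gene. Some genes have more than 1 window and windows of divergent pairs overlap, so the same copy can count more than once. By gene, CCAAT was present in 41 of 48 (85.4%) and TATAAA in 32 of 48 (66.7%). CCAAT was found in every H1, H2A, H2B and H3 window but in only 3 of 10 H4 windows. These letters describe the promoter windows alone and do not show which sequence the fusion protein bound.

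To determine whether PRCC-TFE3 peaks were more frequent in the histone blocks than in the sequence between, peaks per Mb were compared. Both replicates had more peaks per Mb in the blocks than in the sequence between. In replicate 1 the blocks held 75 peaks, or 189.9 per Mb (95% Poisson interval, 149 to 238), and the sequence between held 145 peaks, or 99.7 per Mb (84.1 to 117). In replicate 2 they held 61 peaks, or 154 per Mb (118 to 198), against 114 peaks, or 78.4 per Mb (64.6 to 94.1). The ratio was 1.905 in replicate 1 (95% interval, 1.42 to 2.54, exact binomial p = 1.554e-05, adjusted p = 2.33e-05) and 1.97 in replicate 2 (1.42 to 2.71, exact binomial p = 4.09e-05, adjusted p = 4.09e-05). For union regions, which count a site found in both replicates once, it was 1.88 (1.41 to 2.49, exact binomial p = 1.545e-05, adjusted p = 2.33e-05). These tests are two-sided, the p-values were adjusted over the 3 of them, and they cover counting error only, since neighbouring peaks are not independent. The comparison was chosen with earlier results of these data known, so the p-values are not those of a comparison fixed beforehand.

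**Figure D1:**
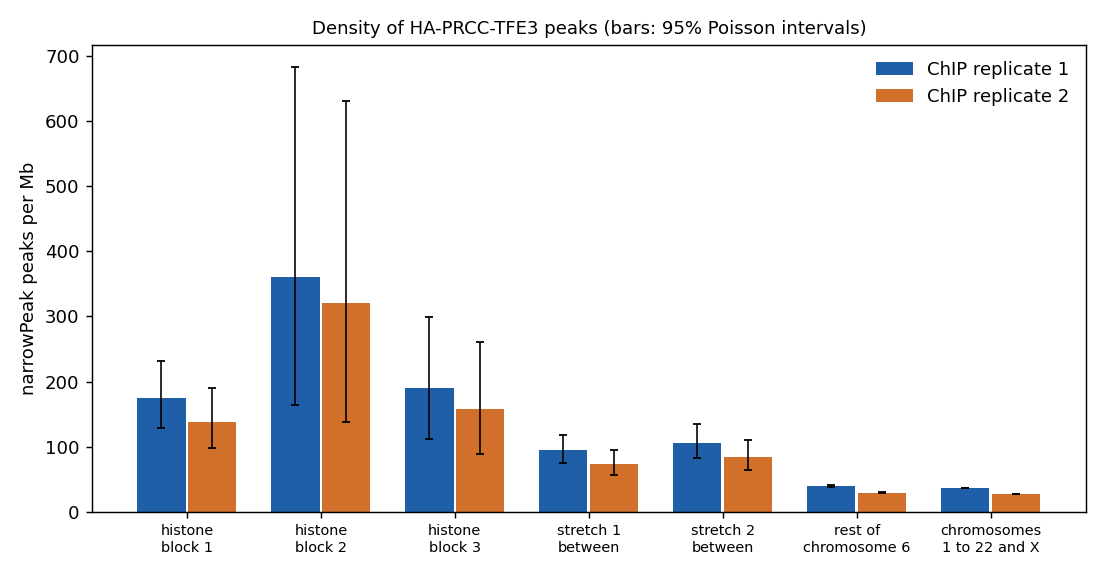
Peaks per Mb in each histone block, in the sequence between the blocks, in the rest of chromosome 6 and on chromosomes 1 to 22 and X, for ChIP replicate 1 (blue) and replicate 2 (orange). Bars are counts divided by length, error bars are 95% Poisson intervals, and block 2 stands highest, at 360 and 320 peaks per Mb, with the widest interval.

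The density next to the blocks differed from border to border. Within 100 kb of a block, on the sides that face the other blocks, replicate 1 had 61 peaks in 400 kb, or 152.5 per Mb, and replicate 2 had 49, or 122.5 per Mb. Farther from the blocks the sequence between had 79.6 and 61.6 peaks per Mb. Of these near peaks, 27 in replicate 1 and 22 in replicate 2 lay in the 100 kb above block 1, at 270 and 220 per Mb (95% Poisson intervals, 178 to 393 and 138 to 333). The 100 kb above block 2 had 18 and 14 peaks, whereas the 100 kb below block 2 had 8 and 5 and the 100 kb below block 3 had 8 in each replicate, near the level farther away. Against the near sequence alone, a comparison chosen after the data were examined, the blocks were 1.245 times as dense in replicate 1 (95% interval, 0.876 to 1.78, exact binomial p = 0.2299) and 1.26 times in replicate 2 (0.851 to 1.88, exact binomial p = 0.253), and the difference no longer passed the threshold. The intervals still include a density 1.78 or 1.88 times as high, so equal density is not shown. The flank above block 1 was the densest, so a comparison without it had to give a higher ratio. Against the other flanks alone, also chosen after the data were examined, the ratio was 1.675 in replicate 1 (1.103 to 2.59, exact binomial p = 0.0118) and 1.72 in replicate 2 (1.07 to 2.81, exact binomial p = 0.0179). Because that flank was left out by its value, these p-values do not test the excess of the blocks.

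**Figure D2:**
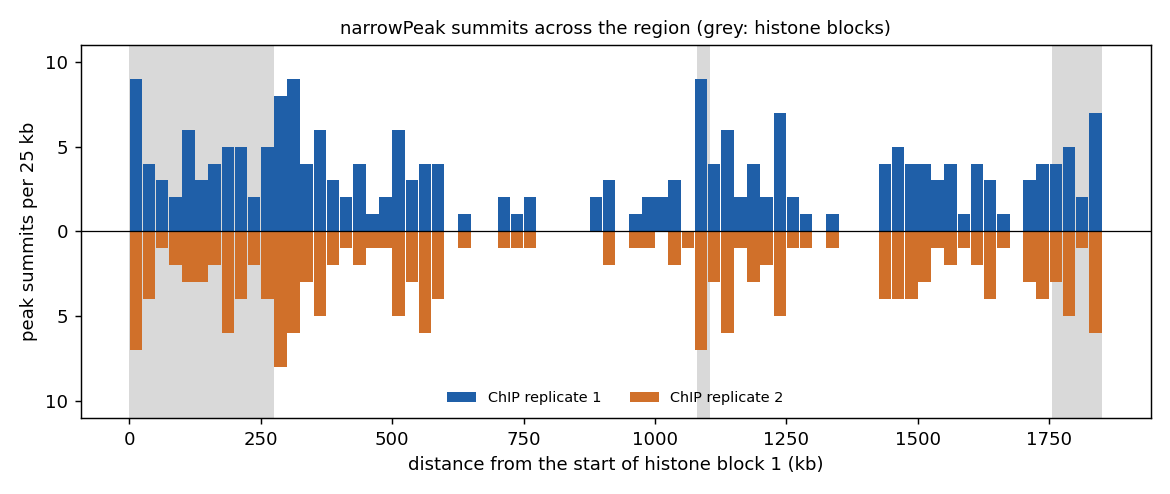
Number of narrowPeak summits in bins of 25 kb, upwards for ChIP replicate 1 and downwards for replicate 2, against the distance in kb from the start of block 1 (grey bands, histone blocks). Bins next to block 1 hold up to 9 summits in replicate 1, as many as the fullest bins inside the blocks, and bins with none are seen in both stretches, some of them close to blocks 2 and 3.

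Both the blocks and their neighbourhood stood above the rest of the chromosome. Outside the blocks, chromosome 6 had 39.6 peaks per Mb in replicate 1 and 29.2 in replicate 2, and chromosomes 1 to 22 and X had 37.0 and 27.6. The blocks exceeded the rest of chromosome 6 by a factor of 4.79 in replicate 1 (3.76 to 6.01, exact binomial p = 4.22e-27) and 5.30 in replicate 2 (4.05 to 6.82, exact binomial p = 1.71e-24), without adjustment. The sequence between also exceeded the remaining chromosome, by a factor of 2.55 (2.15 to 3.003, exact binomial p = 3.52e-22, adjusted p = 4.22e-21) and 2.73 (2.24 to 3.28, exact binomial p = 4.90e-20, adjusted p = 2.94e-19). Counted in windows of 10 kb, 27 of 38 windows of the blocks (71.1%) held at least 1 region shared by both replicates, compared with 17.2% of 303525 windows of chromosomes 1 to 22 and X, 19.2% of chromosome 6 windows and 66 of 145 windows (45.5%) of the sequence between. At least 2 shared regions were present in 15 of the 38 windows (39.5%, against 4.96% of all windows and 5.52% of chromosome 6 windows), and at least 3 in 7 of them (18.4%, against 1.44% and 1.53%). The sequence between again lay nearer to the blocks, with at least 2 in 31 of 145 windows (21.4%) and at least 3 in 13 (8.97%).

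Each block was then compared with the sequence between, with p-values adjusted over the 12 tests of single blocks, of single stretches and of the sequence between. Block 1, with 48 peaks in replicate 1 and 38 in replicate 2, had ratios of 1.75 (1.24 to 2.44, exact binomial p = 0.00149, adjusted p = 0.00199) and 1.76 (1.19 to 2.57, exact binomial p = 0.00369, adjusted p = 0.00443). The small block 2, with the 5 genes from *H2BC11* to *H2AC12*, had 9 and 8 peaks and ratios of 3.61 (1.62 to 7.05, exact binomial p = 0.00132, adjusted p = 0.00198) and 4.08 (1.72 to 8.32, exact binomial p = 0.00116, adjusted p = 0.00198). In block 3 the numbers were 18 and 15, with ratios of 1.901 (1.096 to 3.11, exact binomial p = 0.0138, adjusted p = 0.0150) and 2.015 (1.09 to 3.47, exact binomial p = 0.0155, adjusted p = 0.0155). The intervals of the 3 blocks overlapped, and differences between blocks were not tested.

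The sites of the blocks were largely found in both replicates. Of the replicate 1 peaks in the blocks, 56 of 75 (74.7%, 95% Wilson interval, 63.8% to 83.1%) overlapped a replicate 2 peak, compared with 65.3% of all replicate 1 peaks. Conversely, 59 of 61 replicate 2 peaks (96.7%, 88.8% to 99.1%) overlapped a replicate 1 peak, compared with 88.5% of all replicate 2 peaks. The sequence between was close to the blocks in both, at 107 of 145 replicate 1 peaks (73.8%) and 108 of 114 replicate 2 peaks (94.7%). Of the 77 union regions, 56 (72.7%, 61.9% to 81.4%) were shared, 19 were found in replicate 1 only and 2 in replicate 2 only, whereas 59.8% of all union regions and 107 of 151 (70.9%, 63.2% to 77.5%) in the sequence between were shared. The summits of the shared regions lay a median of 30.5 bp apart between the replicates, and 54 of 56 were within 100 bp. A BED peak was present in both replicates at 43 of the 56, in 1 replicate at 7 and in neither at 6. Regions found in replicate 1 only were mostly weak, with a median fold enrichment of 5.35 against 10.5 for shared regions. The strongest of them lay in block 2 at chr6:27113697-27114011, with a fold enrichment of 15.4 and 27 tags, and replicate 2, with fewer tags in all, had no peak there.

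Next, the strength of the peaks was examined. In the blocks the median fold enrichment over background, as given by the authors' peak caller, was 8.14 in replicate 1, compared with 8.56 in the sequence between and 7.49 on chromosomes 1 to 22 and X. In replicate 2 it was 9.19, compared with 7.69 and 7.32. The upper quartile differed more, at 14.9 in the blocks against 11.5 in the sequence between and 11.8 on all these chromosomes in replicate 1, and at 14.1 against 10.5 and 10.998 in replicate 2. The highest fold in the blocks was 22.5 in replicate 1, which 4980 peaks of that list exceeded, and 19.9 in replicate 2, which 4270 exceeded. Of the block peaks, 7 of 75 (9.33%) and 4 of 61 (6.56%) were in the top decile of their list by fold. These values are descriptions without a test, because peaks of a library are not replicates.

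**Figure D3:**
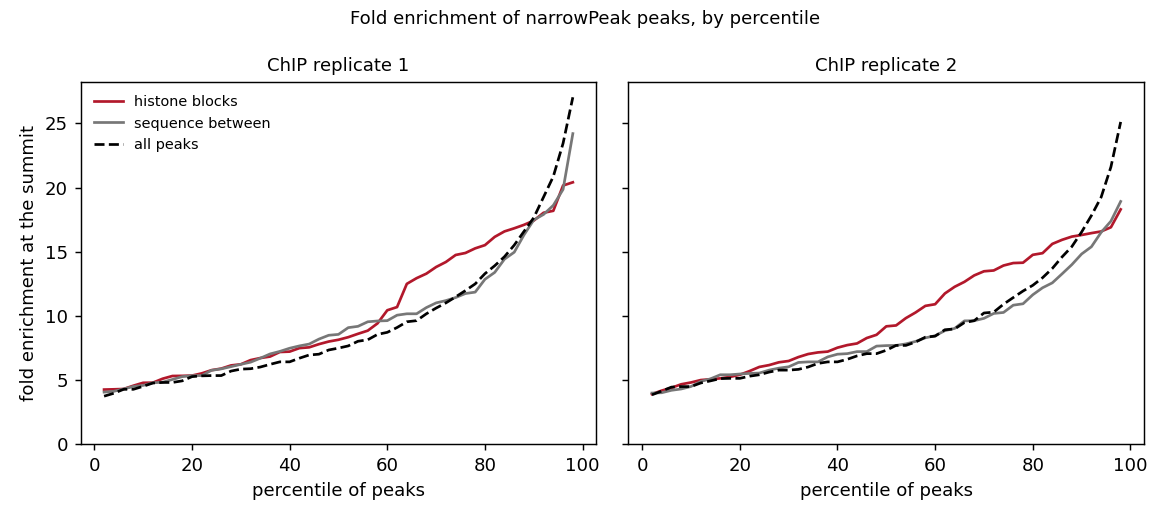
Fold enrichment at the summit (vertical axis) at each percentile of narrowPeak peaks (horizontal axis) in ChIP replicates 1 and 2, for peaks in the histone blocks (red), in the sequence between (grey) and all peaks (dashed). From percentile 60 to 88 the blocks lie above both other curves in both replicates, and above percentile 88 the curve of all peaks lies above that of the blocks.

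Tags, the reads counted in the BED peaks, gave a similar picture. The blocks held 60 BED peaks with 1343 tags in replicate 1, or 3400 tags per Mb, against 110 peaks with 2390 tags, or 1643 per Mb, in the sequence between. In replicate 2 they held 46 peaks with 817 tags, or 2068 per Mb, against 80 peaks with 1255 tags, or 863 per Mb. The ratio of tags per Mb was thus 2.07 in replicate 1 and 2.40 in replicate 2, with an SD of 0.232 between them (n = 2). Tags per peak differed less than the number of peaks. The median was 20 tags per peak both in the blocks and in the sequence between in replicate 1, where all BED peaks had 17, and it was 18.5 against 14 in replicate 2, where all had 13. Peaks of the blocks ranged from 9 to 45 tags in replicate 1 and from 7 to 34 in replicate 2.

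**Figure D4:**
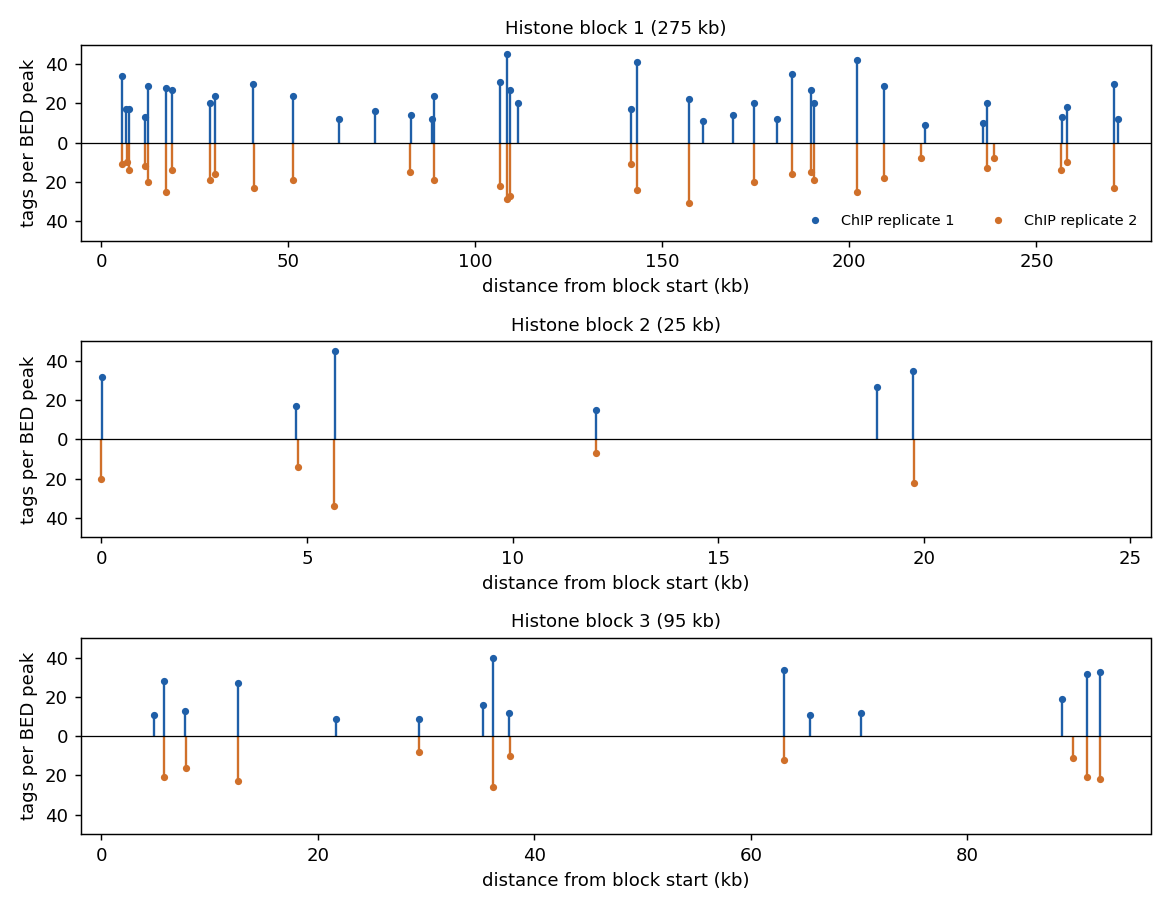
Tags in each BED peak (vertical axis) against the distance in kb from the start of each block, upwards for ChIP replicate 1 (blue) and downwards for replicate 2 (orange). Groups of neighbouring peaks alternate with stretches without any, and most tall peaks, up to 45 tags in replicate 1 and 34 in replicate 2, stand at the same place in both replicates.

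The replicates could be compared tag by tag at 43 BED peaks of the blocks that were matched between them. Replicate 1 had 1110 tags there and replicate 2 had 790, which is 41.6% of the sum (95% Clopper-Pearson interval, 39.4% to 43.8%). The share of replicate 2 was 39.6% (37.8% to 41.5%) in the sequence between, 39.8% (39.8% to 39.9%) at all matched peaks of chromosomes 1 to 22 and X, and 37.7% of the tags of both libraries. The interval in the blocks thus includes the share at other matched peaks. It treats tags of the same peak as independent, which they are not. Matched peaks also had to be called in replicate 2, the library with fewer tags. Their share was therefore not tested against that of the library totals. Single regions departed from the share in the blocks, and 4 were picked after their values were seen. At chr6:26020487-26020810 replicate 1 had 34 tags and replicate 2 had 11, and at chr6:27832853-27833182 they had 34 and 12. The opposite was seen at chr6:26172034-26172429, with 22 and 31 tags, and at chr6:27777611-27777987, with 13 and 16.

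**Figure D5:**
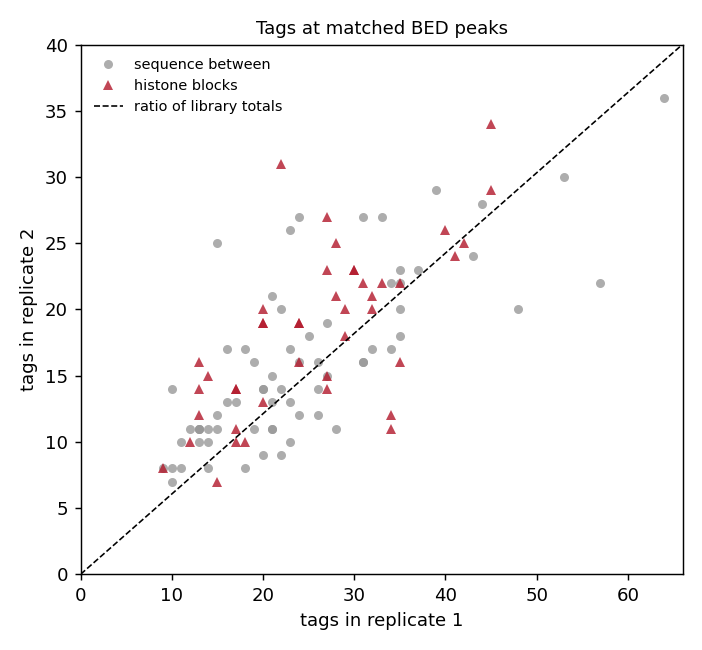
Tags in replicate 2 against tags in replicate 1 at BED peaks matched between the replicates, for the 43 of the histone blocks (red triangles) and the 69 of the sequence between (grey circles). The dashed line gives the ratio of the library totals, and the triangles scatter among the circles, up to 45 tags in replicate 1 and 34 in replicate 2.

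Among the shared regions, those with the highest tag count in the weaker of both replicates were identified. The top 10 comprised 7 regions of block 1, 1 of block 2 and 2 of block 3, and they were 414 to 926 bp wide. The first was in block 2 at chr6:27100211-27100904, with 45 tags and a fold enrichment of 17.1 in replicate 1 and 34 tags and a fold of 17.1 in replicate 2, and its summits were 4 bp apart. It was followed by neighbours in block 1. The region at chr6:26123151-26123647 had 45 and 29 tags and the highest fold of the blocks in replicate 1, 22.5, with 18.6 in replicate 2. Beside it, chr6:26124063-26124476 had 27 tags in each replicate and folds of 13.0 and 16.5. The summits of these neighbours differed between the replicates by only 5 and 3 bp.

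In block 3 the strongest region, chr6:27805892-27806561, had 40 tags in replicate 1 and 26 in replicate 2, with folds of 20.5 and 16.4. Another at chr6:27782283-27782807 had 27 and 23 tags. The remaining 5 of the top 10 were spread over block 1 from its beginning to its end. They were chr6:26216694-26217619 with 42 and 25 tags, chr6:26032103-26032600 with 28 and 25, chr6:26157998-26158779 with 41 and 24, chr6:26055100-26056001 with 30 and 23, and chr6:26285350-26285985 with 30 and 23. In all 10 regions both replicates had a fold of 12.96 or more, and the summits were at most 70 bp apart. Just below the limit, 4 regions had 22 tags in the weaker replicate. The strongest region of the sequence between, chr6:26351726-26352197 in stretch 1, exceeded all of these, with 64 and 36 tags and folds of 31.7 and 21.4.

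Block 2 is small enough to be described in full. Going from its lower coordinate, the first of its 9 union regions straddled the border at chr6:27094856-27095188 and had folds of 16.6 in replicate 1 and 13.5 in replicate 2. The next, chr6:27099274-27099887, was weaker, at 7.22 and 7.52, and lay beside the strong region at chr6:27100211-27100904. Next to it, chr6:27101654-27101834 was found in replicate 1 only, with a fold of 4.80. Weak regions followed. At chr6:27102305-27102540 the folds were 6.22 and 7.01, at chr6:27105151-27105372 the fold was 8.56 in replicate 1 alone, and at chr6:27106725-27107090 the folds were 7.18 and 6.02. The block closed with chr6:27113697-27114011, described above as found in replicate 1 only, and with chr6:27114550-27115405, which had folds of 18.2 and 15.4 and 35 and 22 tags. Of the 9 regions, 6 were shared.

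The shared regions of the blocks also stood close to each other. The median distance between neighbouring shared regions was 4.49 kb in the blocks, compared with 6.12 kb in the sequence between and 13.7 kb in the rest of chromosome 6. It was 4.97 kb in block 1, 4.49 kb in block 2 and 1.69 kb in block 3. Of 53 neighbours in the blocks, 23 (43.4%) were within 2 kb, compared with 30 of 105 (28.6%) in the sequence between and 16.6% in the rest of chromosome 6. At the same time, the longest stretch without a shared region was 31.0 kb in the blocks, whereas it reached 157 kb in the sequence between. The stretches are 805 and 650 kb long and the blocks at most 275 kb, so longer gaps had more room in the sequence between. The distances also follow in part from the density itself and were not tested separately.

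Finally, input DNA was examined at the same places. None of the 286 input peaks lay in the blocks or in the sequence between, and the nearest was 30.9 Mb away. Input tags at the BED peaks were few. In the replicate 1 list the blocks had 43 input tags at 60 peaks, a mean of 0.717 per peak, compared with 1.03 in the sequence between and 0.874 on chromosomes 1 to 22 and X. In the replicate 2 list they had 22 input tags at 46 peaks, or 0.478 per peak, compared with 0.963 and 0.876. Peaks are listed where ChIP signal exceeds background, so few input tags at them are not a separate check. Subtracting the scaled input tags left the ratio of tags per Mb at 2.09 and 2.42, against 2.07 and 2.40 before. With 43 input tags beside 1343 ChIP tags in the blocks in replicate 1, and 22 beside 817 in replicate 2, the subtraction could change the ratio only little. Many histone genes are near copies of each other, and how reads that match several copies were placed is not given in the sources used here. Its part in these numbers was not tested.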

How the data were processed

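HA-PRCC-TFE3 ChIP-seq (2 replicates) and input DNA (1 library) were analysed from the deposited peak lists, which were called for each sample separately. Per the labels, the build is hg19. The methods of the study name MACS in Strand NGS with input DNA as control. They also describe a stringent p-value threshold for its binding sites. The lists counted here reach down to −log10 q values of 1.31 and 1.35, so their peaks need not be those sites. The aligner and the handling of duplicates are not given in the sources used here. In the authors' narrowPeak lists each peak carries a fold enrichment ratio, −log10 p and q values (lowest −log10 q, 1.31 and 1.35), a score of 10 times the −log10 q value, and a summit. The deposited BED lists have displaced headers and were read by position. As deposited, they give a score, a tag count, a signal in tags per 10000000, a scaled input signal, fold ratios, p-values and a focus fraction, of which the p-values and the focus fraction are not reported. Positions are printed 1-based.

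Library totals were recovered as summed tags over summed signal, and input tags per peak from tags and fold, and 100% of these values were whole within 0.05 of their size (of 1 tag at 0). Union regions were formed from peaks that overlapped by 1 bp or more, and a region with peaks of both replicates was called shared. Per replicate, 1 peak on a block border was counted on both sides. Counts were compared given the lengths with exact binomial tests (two-sided, threshold 0.05, Benjamini-Hochberg adjusted) in SciPy 1.17.1, and the functions were checked on simulated peaks. Intervals (95%) cover counting error only. The study describes the ChIP replicates as biological replicates. Chromosome lengths were taken from first to last peak. Gene names, order and promoters came from RefSeq, GRCh38.p14, and no coordinates were converted. Named were the 10 shared regions ranked first by the tag count of the replicate with fewer tags, every region of block 2 and the strongest region between. Genes were named by RefSeq runs of at least 5 histone genes, split at gaps of 100 kb. Blocks, lists and comparisons were chosen with earlier results of these data known, and CATGTG was added later.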

Additional observations from a re-analysis of the deposited data

How the results depend on the processing

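Of 41 alternative values, 36 stayed on the same side of their limits, 3 lost significance and 2 moved, and all 37 ratios stayed above 1. Some of the 36 could not come out otherwise, so their number does not measure robustness. Leaving out peaks that overlap an input peak changed no count, because no input peak lay there. Subtracting input tags could move the tag ratios only little, because few of them lay at the BED peaks. Values without the densest flank were also among the 36. The limits were the test threshold for peak and region ratios whatever their size, 1 SD between replicates for tag ratios and 1.5 times for counts. The lost calls were those against sequence within 100 kb of a block, an alternative chosen after the data were examined, which gave 1.245 in replicate 1, 1.26 in replicate 2 and 1.24 for union regions. Without the flank of block 1, the densest, they were 1.675, 1.72 and 1.67, but a rise was fixed by leaving out that flank. With the rest of chromosome 6 as comparison, the tag ratio moved to 5.21 in replicate 1 and 5.81 in replicate 2, and the peak ratio rose to 4.79 and 5.30, as that sequence has fewer peaks per Mb. With q below 1e-05, the BED lists, summits, or borders shifted by 5 kb, the peak ratio ranged from 1.76 to 2.01 in replicate 1 and from 1.72 to 2.12 in replicate 2. Without block 2, also chosen later, it was 1.79 and 1.83. With either replicate left out, the union ratio was 1.905 or 1.97, which is simply the ratio of the other replicate. Shared regions in the blocks numbered 43 to 54 against 56. No paired analysis was possible because regions were compared within each library and only ChIP samples are numbered as replicates. Depth limits weak sites: with 7418533 tags in replicate 2, a replicate 1 region not listed there cannot be taken as absent.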
